A study of Mus musculus with 24 samples.

Results

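The livers of mice that received both the AKT and NRas plasmids and thioacetamide (SB/AKT/NRas + TAA, n = 5) were compared with livers of mice that received neither (SB + saline, n = 4). The 9 livers were chosen by their titles from the 24 of the series, and all genes of the count table entered the comparison. Every mouse was a male of strain C57BL/6JAusb, 14 to 15 weeks old at hydrodynamic tail vein injection, and each library is the bulk liver tissue of 1 mouse. All of them, controls included, received 0.8 µg of the plasmid pCMV-SB, which encodes the Sleeping Beauty transposase. SB + saline mice received no oncogene plasmid and were injected with saline. SB/AKT/NRas + TAA mice also received 10 µg of pT3-myr-AKT-HA, a membrane-bound and constitutively active AKT, and 10 µg of pT2-CAGGS-NRasV12, an active human NRas driven by the ubiquitous CAGGS promoter. Intraperitoneal injections started 8 to 10 days later, 2 per week for 5 to 6 weeks and 10 to 11 in all, and the TAA dose went from 100 mg/kg to 200 mg/kg. Transposon delivery of this kind reaches a part of the hepatocytes only, and the labels do not say how much tumor each piece of liver held. Further groups used for comparison are SB/AKT/c-Met + TAA (n = 4, with a c-Met plasmid in place of NRas), the injury alone in SB + TAA (n = 4) and the oncogenes alone in SB/AKT/NRas + saline (n = 4), each with the SB plasmid as well.

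TAA is a hepatotoxin that must be oxidised inside the hepatocyte, mainly by cytochrome P450 2E1, before it injures the cell. That enzyme is concentrated in the hepatocytes around the central vein, so repeated dosing kills pericentral cells and leaves regeneration, inflammation and scarring. AKT and RAS are growth factor relays: active AKT drives glucose uptake and lipid storage, while active RAS drives the MAPK cascade and cell division, and the pair together forms liver tumors in mice. The comparison therefore asks how far a liver with both the oncogenes and the injury departs from the untreated baseline.

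Levels are given in CPM, counts per 1000000 of the TMM-scaled library, in the order of the replicate numbers. Changes are log2 fold changes from edgeR ± standard error, SB/AKT/NRas + TAA over SB + saline, with p-values adjusted over all genes tested. The standard error was derived from the edgeR F statistic, as the absolute log2 fold change over the square root of F. Human NRAS, the insert of the NRas plasmid, was at 34, 47.6, 18.5, 17.9 and 75.7 CPM in the livers of SB/AKT/NRas + TAA and 0, 1.14, 0 and 0.856 CPM in those of SB + saline. No liver of one group reached the level of the other, and the log2 fold change was 6.31 ± 0.93 (edgeR adjusted p = 0.000114). Within SB/AKT/NRas + TAA the highest liver, replicate 5, and the lowest, replicate 4, lay far apart. Human MET had 0 counts in all 9 livers, which allows up to 0.185 CPM in SB/AKT/NRas + TAA and 0.336 CPM in SB + saline (3 counts over each group, counting error only). Mouse Nras, which the plasmid does not carry, rose too (56.4, 62.2, 47, 44.7 and 57.4 CPM against 31.2, 33.5, 29.3 and 24.4 CPM, 0.86 ± 0.18, edgeR adjusted p = 0.00282). Mouse Akt1 was at 29, 19.6, 13.8, 18.6 and 24.1 CPM against 18.8, 17.6, 15.2 and 18 CPM and mouse Met at 34.7, 24, 26.3, 27.2 and 23.6 CPM against 42.8, 42.1, 29.3 and 40.2 CPM, and neither passed the test (edgeR adjusted p = 0.578 and 0.0861). No row of the count table stands for the AKT plasmid. Mouse Akt1 was at 15.8, 33.8, 63.1 and 43 CPM in SB/AKT/NRas + saline, the order of livers that human NRAS had there. It was higher than in SB + saline by 1.17 ± 0.27 (edgeR adjusted p = 0.00745). Livers with TAA as well differed from that group by −0.90 ± 0.24 (edgeR adjusted p = 0.163). Without its replicate 1, an omission chosen after seeing the data, this was −1.16 ± 0.21 (edgeR adjusted p = 0.00684). Whether the plasmid adds to these counts was not tested.

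The libraries held 2152510 to 3399247 counts, one per molecular tag. The groups differed in ranges that did not overlap: 17355 to 18707 genes with a count in SB/AKT/NRas + TAA and 15478 to 16478 in SB + saline, 19.41% to 22.73% and 15.6% to 16.69% of records assigned to a gene, TMM scaling factors of 0.943 to 1.174 and 0.772 to 0.818, and mitochondrial shares of 6.41% to 10.42% and 11.51% to 14.02%. Their part in the results was not tested. Livers of different groups were 2.437 to 3.56 apart (median 3.202, root mean square of the 500 largest log2 differences of a pair), against 1.653 to 2.329 within SB/AKT/NRas + TAA and 1.888 to 2.146 within SB + saline.

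Of 19381 genes tested, edgeR called 1148 (5.92%) at an adjusted p under 0.05 and more than a 2-fold change: 815 higher (4.21%) and 333 lower (1.72%). Called genes were thus higher in 71% of cases. That split depends on the scaling, since with library size alone 1898 genes were higher and 184 lower (91.2% higher), and the median log2 fold change of all genes moved from 0.072 to 0.462. On the adjusted p alone, the rule used for gene lists below, 1105 genes (5.7%) were higher and 688 (3.55%) lower. In level, 7.89% of all genes were higher in every treated liver than in every control and 6.12% lower. 

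**Figure D1:**
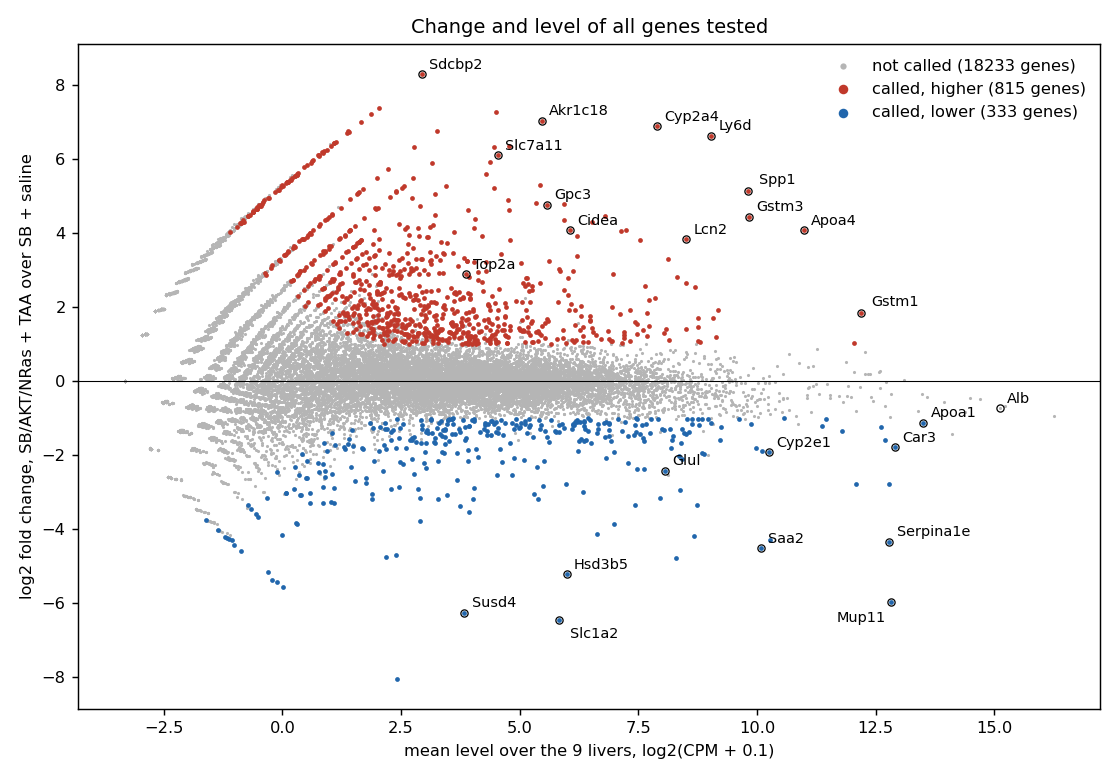
Log2 fold change of each gene (SB/AKT/NRas + TAA over SB + saline) against its mean level over the 9 livers on a log2(CPM + 0.1) scale; each point is 1 gene, colored where edgeR called it. The 815 higher genes reach further from 0 at low levels, while several of the most abundant genes, among them Mup11, Serpina1e, Car3 and Apoa1, lie among the 333 lower ones.

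The genes of cell division rose almost as a whole. Of 28 mitosis genes, 26 rose and 0 fell, with a median log2 fold change of 3.23 (2.94 with genes at 0 in a group set to their bound, and 0.072 over all genes). Their summed level was 295, 262, 143, 131 and 254 CPM in SB/AKT/NRas + TAA and 16 to 30.8 CPM in SB + saline. With each alternative setting 22 to 27 rose. Top2a, the topoisomerase that untangles chromosomes (ENSMUSG00000020914, chromosome 11, 98992943 to 99024189, GRCm38), was at 32, 28.4, 12.2, 16.5 and 28.6 CPM in the livers of SB/AKT/NRas + TAA and 3.42, 3.41, 1.2 and 4.71 CPM in those of SB + saline. The lowest SB/AKT/NRas + TAA liver was well above the highest control, and the log2 fold change was 2.89 ± 0.51 (edgeR adjusted p = 0.000611).

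Cenpf, a kinetochore protein, was at 25, 22.4, 11.3, 9.97 and 19.1 CPM in the livers of SB/AKT/NRas + TAA and 1.28, 2.27, 0 and 3 CPM in those of SB + saline. Cdc20, the activator of the anaphase-promoting complex, was at 21.4, 20.2, 11.6, 9.63 and 15.5 CPM against 1.28, 2.27, 0.802 and 1.71 CPM, and Ube2c, its ubiquitin-conjugating enzyme, at 16, 15.8, 10, 5.16 and 16 CPM against 0.856, 2.84, 0.802 and 0.856 CPM. In all of these the groups were apart, with replicates 3 and 4 of the treated livers lowest in Cenpf, Cdc20 and Ube2c. The log2 fold changes were 3.44 ± 0.57, 3.38 ± 0.60 and 3.30 ± 0.53 (edgeR adjusted p = 0.000253, 0.000543 and 0.000177). Nusap1, which binds the spindle microtubules, had the smallest adjusted p of the list (18, 13.2, 6.9, 9.28 and 10 CPM against 0.856, 2.27, 1.2 and 0.428 CPM, log2 fold change 3.29 ± 0.51, edgeR adjusted p = 0.000116), followed by Ube2c and Prc1, a cross-linker of the spindle midzone (21, 21.1, 6.27, 5.84 and 19.3 CPM against 0.856, 0, 0.401 and 1.71 CPM, 4.17 ± 0.68, edgeR adjusted p = 0.000229).

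Promoters of mitosis genes commonly carry a cell cycle genes homology region (CHR), through which the DREAM complex holds them silent outside of division, and CCAAT boxes, which the activator NF-Y binds. RefSeq (GRCm38.p6) gives a promoter, 250 bases before to 50 after the start, for 24 of the 28 members. The CHR letters TTTGAA, read on either strand, were in 19 of the 24 (79.2%), against 20.2% of 27025 genes (17.9% of all 32851 promoters). The letters CCAAT, on either strand, were in 20 (83.3%), against 41.1% of genes (37.4% of promoters). The promoters of members described above follow 5′ to 3′ on the strand of the gene, with both elements in capitals (TTCAAA and ATTGG are the same letters on the opposite strand, and adjoining matches run together). Cdc20 (chr4:118437294-118437593, minus strand), Ube2c (chr2:164769679-164769978, plus), Top2a (chr11:99024140-99024439, minus) and Cenpf (chr1:189688037-189688336, minus) hold both, whereas Nusap1 (chr2:119618048-119618347, plus) holds neither in this window although its transcript rose as far.
Cdc20: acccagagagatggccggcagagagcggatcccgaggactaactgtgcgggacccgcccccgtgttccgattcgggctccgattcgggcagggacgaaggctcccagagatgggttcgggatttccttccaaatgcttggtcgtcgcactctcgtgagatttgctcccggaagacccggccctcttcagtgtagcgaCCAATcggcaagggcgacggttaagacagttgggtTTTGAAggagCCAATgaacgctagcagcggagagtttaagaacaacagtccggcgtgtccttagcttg
Ube2c: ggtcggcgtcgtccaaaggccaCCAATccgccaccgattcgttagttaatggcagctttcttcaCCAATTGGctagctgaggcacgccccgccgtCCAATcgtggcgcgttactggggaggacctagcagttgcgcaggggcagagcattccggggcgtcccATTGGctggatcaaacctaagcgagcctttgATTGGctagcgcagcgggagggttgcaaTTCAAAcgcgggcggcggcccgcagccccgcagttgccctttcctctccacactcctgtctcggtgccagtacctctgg
Top2a: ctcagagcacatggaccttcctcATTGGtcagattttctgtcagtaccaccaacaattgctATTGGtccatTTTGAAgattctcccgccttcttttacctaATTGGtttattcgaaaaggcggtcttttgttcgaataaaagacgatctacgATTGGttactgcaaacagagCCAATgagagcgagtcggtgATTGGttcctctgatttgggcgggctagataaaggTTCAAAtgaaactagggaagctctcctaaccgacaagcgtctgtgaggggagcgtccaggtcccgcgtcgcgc
Cenpf: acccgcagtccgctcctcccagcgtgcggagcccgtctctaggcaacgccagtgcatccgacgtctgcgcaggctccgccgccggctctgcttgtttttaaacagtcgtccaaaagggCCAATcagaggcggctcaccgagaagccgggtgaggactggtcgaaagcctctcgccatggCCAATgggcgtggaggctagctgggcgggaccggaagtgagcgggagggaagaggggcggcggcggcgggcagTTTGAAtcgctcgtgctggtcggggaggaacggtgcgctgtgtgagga
Nusap1: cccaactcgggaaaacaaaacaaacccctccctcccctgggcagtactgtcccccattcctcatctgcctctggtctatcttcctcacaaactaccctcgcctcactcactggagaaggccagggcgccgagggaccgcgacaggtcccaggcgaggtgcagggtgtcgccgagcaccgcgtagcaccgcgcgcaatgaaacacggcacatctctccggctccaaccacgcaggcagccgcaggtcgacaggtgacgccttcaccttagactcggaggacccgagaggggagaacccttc
These matches are letters in a window and say nothing of which factor was bound in these livers.

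DNA replication genes rose less uniformly. Of 25, 11 rose and 1 fell, with a median of 0.98. Rrm2, the ribonucleotide reductase subunit of S phase, was at 22.4, 30, 25.1, 20.6 and 24.6 CPM in the livers of SB/AKT/NRas + TAA and 10.3, 6.25, 5.21 and 7.28 CPM in those of SB + saline (1.75 ± 0.36, edgeR adjusted p = 0.0023). Gins2, part of the replicative helicase, was at 7.34, 6.31, 7.21, 5.16 and 5.26 CPM against 1.28, 0.568, 0 and 0.428 CPM (3.38 ± 0.56, edgeR adjusted p = 0.000274), and Rfc4, a clamp loader, at 11.7, 10.1, 8.78, 8.6 and 9.77 CPM against 3.85, 3.98, 4.01 and 3.85 CPM (1.31 ± 0.25, edgeR adjusted p = 0.00107). All 5 treated livers were above all 4 controls in each of these. The member that fell, named after its value was seen, was the thymidine kinase Tk1 (8.68, 5.05, 3.76, 8.6 and 7.52 CPM against 12.8, 13.1, 13.2 and 17.1 CPM, −1.06 ± 0.28, edgeR adjusted p = 0.0142), and its call was lost without SB + saline replicate 4 and with library size alone. The count of rising members was 7 without SB + saline replicate 1 and also 7 without replicate 2.

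Of 14 G1 cyclins and CDK inhibitors, 4 rose and 0 fell, the inhibitors Cdkn1a and Cdkn2b, the cyclin Ccnd1 and the kinase Cdk6, or 8 with library size alone. Cdkn1a, which encodes p21 (ENSMUSG00000023067, chromosome 17, 29090979 to 29100722), was at 104, 145, 93.1, 89.7 and 138 CPM in the livers of SB/AKT/NRas + TAA and 1.71, 10.8, 22.1 and 22.7 CPM in those of SB + saline. The lowest treated liver was well above the highest control, and the log2 fold change was 2.97 ± 0.48 (edgeR adjusted p = 0.000197). Cdkn2b, the p15 inhibitor of CDK4 and CDK6, was at 9.68, 12.3, 6.58, 4.13 and 18.3 CPM against 0, 0, 0.401 and 0.428 CPM (a ratio of 47.8 with a 95% counting interval of 13 to 398, edgeR adjusted p = 0.000546), and cyclin D1 (Ccnd1) at 177, 138, 98.8, 85.6 and 147 CPM against 29.1, 56.3, 40.1 and 27.4 CPM (1.77 ± 0.37, edgeR adjusted p = 0.00245).

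Targets of p53, the factor that answers DNA damage and oncogene stress, rose nearly as widely: 14 of 16 rose and 0 fell (median 1.83). Their summed level was 426 to 551 CPM in SB/AKT/NRas + TAA and 133 to 188 CPM in SB + saline. Gdf15, a secreted stress cytokine (ENSMUSG00000038508, chromosome 8, 70629393 to 70632456), was at 24.7, 29.7, 31.4, 28.5 and 21.8 CPM in the livers of SB/AKT/NRas + TAA and 1.28, 2.27, 3.61 and 4.28 CPM in those of SB + saline, with the smallest adjusted p of the list (3.21 ± 0.38, edgeR adjusted p = 4.88e-06). Ccng1, cyclin G1, was at 66.4, 72.3, 66.8, 61.9 and 75.4 CPM against 22.3, 15.9, 28.9 and 18 CPM (1.68 ± 0.24, edgeR adjusted p = 4.4e-05) and Trp53inp1, an activator of p53-dependent death, at 66.1, 95.6, 94.1, 75 and 83 CPM against 30.4, 27.9, 36.1 and 32.5 CPM (1.38 ± 0.19, edgeR adjusted p = 3.14e-05). In all of these the groups did not overlap. Tnfrsf10b, the death receptor for TRAIL, had 1 count in all controls together and was at 8.34, 6.31, 2.51, 3.44 and 4.76 CPM in the treated livers (a ratio of 45 with a 95% counting interval of 7.86 to 1800, edgeR adjusted p = 0.000726); such intervals cover counting error only. Each alternative setting left 13 to 15 of the 16 rising.

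Few feedback genes of the RAS-MAPK cascade passed the test. Of 17, 1 rose, the ERK phosphatase Dusp6 (64.1, 53.3, 67.1, 56 and 41.6 CPM against 21, 33.5, 40.1 and 21 CPM, 0.96 ± 0.29, edgeR adjusted p = 0.0303), 16 did not pass the test, and Dusp6 itself lost the call in 6 of 19 alternatives. That share (5.88%) is near the 5.7% of all genes. The count was 0 with robust estimation, 2 with limma-voom, 3 with DESeq2, and 4 with library size alone or no filter. The list median was 0.87, or 0.81 with genes at 0 in a group set to their bound, against 0.072 over all genes. At an unadjusted edgeR p under 0.05, 4 were higher. In SB/AKT/NRas + saline 5 of 17 rose. Activity of the cascade itself was not tested. Of 10 AP-1 factors tested, 2 rose: Jun (87.1, 76, 59.6, 47.1 and 75.7 CPM against 12.4, 17.1, 34.1 and 26.1 CPM, 1.61 ± 0.28, edgeR adjusted p = 0.000475) and Atf3 (11.7, 4.1, 2.51, 5.16 and 7.27 CPM against 2.14, 0, 0.401 and 1.71 CPM, 2.42 ± 0.60, edgeR adjusted p = 0.00994). AP-1 members are also induced by stress and by tissue handling.

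Fetal liver and liver cancer markers had the largest median rise of the 45 lists. Of 16 listed, 12 were tested, and 9 of these rose and 0 fell, with a median of 4.33. Their summed level was 1835, 1478, 820, 758 and 1646 CPM in SB/AKT/NRas + TAA and 33 to 46.6 CPM in SB + saline. Most of that sum in each treated liver was Ly6d. Ly6d, a membrane-anchored surface protein (ENSMUSG00000034634, chromosome 15, 74762056 to 74763620), was the most abundant: 1483, 1049, 546, 571 and 1011 CPM in the livers of SB/AKT/NRas + TAA and 9.42, 15.9, 6.82 and 6.42 CPM in those of SB + saline. Every treated liver exceeded every control many times over, and the log2 fold change was 6.62 ± 0.65 (edgeR adjusted p = 5.54e-07). Gpc3, the oncofetal heparan sulfate proteoglycan used as a marker of hepatocellular carcinoma (ENSMUSG00000055653, chromosome X, 52272426 to 52613950), was at 75.8, 87.1, 105, 66 and 82 CPM against 2.57, 3.41, 3.61 and 2.57 CPM (4.76 ± 0.68, edgeR adjusted p = 5.16e-05). Unlike Ly6d, it was nearly level among the 5 treated livers.

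Afp, the fetal albumin relative, was at 72.8, 78.3, 35.1, 27.2 and 167 CPM against 2.14, 1.71, 0.802 and 3 CPM (5.29 ± 0.89, edgeR adjusted p = 0.000295), highest in replicate 5. Akr1c18, a hydroxysteroid dehydrogenase, was at 77.1, 92.5, 36.1, 22.4 and 166 CPM against 0, 1.14, 0.802 and 0.428 CPM (7.03 ± 1.12, edgeR adjusted p = 0.000168) and followed the same order of livers as Afp, from replicate 5 down to replicate 4. Tubb2b, a tubulin of immature tissue, had 1 count in the controls together and 6.53 to 26.2 CPM in the treated livers (a ratio of 153 with a 95% counting interval of 27.2 to 6050, edgeR adjusted p = 1.12e-05). The transcription factor Sox4 (52.7, 62.2, 38.2, 22.7 and 94.7 CPM against 6.42, 4.55, 7.22 and 5.14 CPM, 3.19 ± 0.51, edgeR adjusted p = 0.000181) and the neurotrophin receptor Ntrk2 (17.7, 16.4, 11.9, 7.56 and 16.8 CPM against 0.856, 2.84, 0 and 0.428 CPM, 3.89 ± 0.58, edgeR adjusted p = 7.36e-05) rose in all 5 livers. The imprinted RNA H19 was at 3, 14.8, 7.53, 1.72 and 33.3 CPM against 0, 0, 0.401 and 0 CPM (a ratio of 120 with a 95% counting interval of 21.3 to 4750, edgeR adjusted p = 0.0271). Its call is weak, since limma-voom, robust estimation and the omission of any control or of replicate 5 each ended it.

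The genes with the largest rise among those at 5 CPM or more included several outside these lists. Sdcbp2, a syntenin-type scaffold, had 0 counts in SB + saline and was at 23.4, 17.7, 4.7, 6.19 and 15.8 CPM in the treated livers, at least 40.3-fold higher (edgeR adjusted p = 7.53e-05). Cyp21a1, the steroid 21-hydroxylase, was at 56.7, 72.3, 19.4, 19.6 and 75.9 CPM against 1.28, 0, 0.802 and 0 CPM (6.35 ± 0.93, edgeR adjusted p = 6.78e-05), Fam83a at 24.7, 18.6, 6.58, 5.16 and 22.8 CPM against 0.428, 0, 0 and 0.428 CPM (a ratio of 71.4 with a 95% counting interval of 19.6 to 593, edgeR adjusted p = 0.000451) and the keratin Krt20 at 16.7, 16.1, 3.76, 1.72 and 20.3 CPM against 0.428, 0, 0.401 and 0 CPM (a ratio of 54.6 with a 95% counting interval of 14.9 to 454, edgeR adjusted p = 0.00451). Replicates 1, 2 and 5 were well above replicates 3 and 4 in each. Wfdc18, a secreted whey acidic protein, was at 12, 10.7, 2.19, 1.72 and 174 CPM against 0.428, 0, 0.401 and 0 CPM (a ratio of 213 with a 95% counting interval of 58.7 to 1760, edgeR adjusted p = 0.0151). Replicate 5 set its mean, and 5 of 19 alternatives, among them the omission of that liver or of SB + saline replicate 4, ended the call.

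Bile duct markers gave a mixed picture. Of 16 tested, 4 rose and 0 fell: Tspan8 (52.4, 50.5, 17.6, 9.63 and 105 CPM against 2.14, 0.568, 1.2 and 2.14 CPM, 4.88 ± 0.93, edgeR adjusted p = 0.00124), Bicc1 (2.16 ± 0.54, edgeR adjusted p = 0.011), Cd24a (2.67 ± 0.69, edgeR adjusted p = 0.0126) and Prom1 (a ratio of 43.4 with a 95% counting interval of 11.8 to 361, edgeR adjusted p = 0.0156). The defining keratin Krt19 was at 5.34, 1.58, 1.25, 2.41 and 20.6 CPM against 2.14, 0, 2 and 2.14 CPM and Epcam at 5.34, 2.84, 3.76, 0 and 15.8 CPM against 1.28, 2.84, 2.41 and 0.428 CPM, with neither past the test (edgeR adjusted p = 0.239 and 0.206). Replicate 5 held the highest value in all 6 of these genes. Without it, and equally with limma-voom, 1 of the 16 rose.

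Genes of glutathione metabolism and the NRF2 response, which detoxify electrophiles and oxidants, made up a list of 23. Of these, 14 rose and 0 fell (median 1.92), with 1 lower by limma-voom, by DESeq2, with RLE size factors, with no filter or filterByExpr, and without SB/AKT/NRas + TAA replicate 3 or 4 or SB + TAA replicate 4, and 2 lower in the 9 livers alone, and their summed level was 10641 to 12572 CPM in SB/AKT/NRas + TAA against 3885 to 4086 CPM in SB + saline. Gstm1, a glutathione transferase, gained more CPM than any other called gene: 6871, 6772, 6486, 7772 and 6361 CPM in the livers of SB/AKT/NRas + TAA and 1949, 1908, 1907 and 1903 CPM in those of SB + saline. The spread within each group was small beside the gap (1.84 ± 0.24, edgeR adjusted p = 1.87e-05). Gstm3 (ENSMUSG00000004038, chromosome 3, 107963696 to 107969283) was at 2169, 1751, 1150, 1386 and 1488 CPM against 102, 63.7, 59 and 68.9 CPM (4.43 ± 0.44, edgeR adjusted p = 5.54e-07), Gstm2 at 410.2, 348, 256, 269 and 287 CPM against 73.2, 41.5, 38.9 and 56.5 CPM (2.58 ± 0.30, edgeR adjusted p = 3.93e-06) and Gsta1 at 301, 269, 157, 211 and 262 CPM against 11.1, 16.5, 12.8 and 17.6 CPM (4.05 ± 0.49, edgeR adjusted p = 4.88e-06). Members of the Gst families are close paralogs, and reads that map to several of them were left out by the authors, so the split between members is uncertain.

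Genes outside the transferase families rose as well. Slc7a11, the cystine importer that feeds glutathione synthesis (ENSMUSG00000027737, chromosome 3, 49892526 to 50443614), was at 56.1, 51.8, 37, 22.4 and 39.3 CPM in the livers of SB/AKT/NRas + TAA and 0, 0.568, 0.401 and 1.28 CPM in those of SB + saline. The controls were near 0 in all 4 livers, and the log2 fold change was 6.10 ± 0.82 (edgeR adjusted p = 2.09e-05). Cbr3, a carbonyl reductase, was at 90.8, 72.3, 57.7, 70.1 and 61.1 CPM against 2.14, 3.41, 2.41 and 2.14 CPM (4.80 ± 0.56, edgeR adjusted p = 3.93e-06), and Pgd, an NADPH-making enzyme of the pentose phosphate pathway, at 127, 137, 102, 84.9 and 139 CPM against 31.2, 29, 28.1 and 27 CPM (2.03 ± 0.26, edgeR adjusted p = 1.12e-05). Fth1, the ferritin heavy chain, which is not on the list but had the third largest gain in CPM of the called genes, was at 5480, 5154, 5473, 5746 and 5171 CPM against 2873, 2206, 2811 and 2765 CPM (1.02 ± 0.18, edgeR adjusted p = 0.000712). RefSeq gives a promoter for 19 of the 23 genes. The core letters TGACNNNGC of the antioxidant response element, on either strand, were in 5 (26.3%) of these and in 14% of all genes (12.4% of promoters), and the AP-1 letters TGANTCA, on either strand, were in 3 (15.8%) and 9% (7.8%). Sites of NRF2 further from the start are not in this window.

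**Figure D2:**
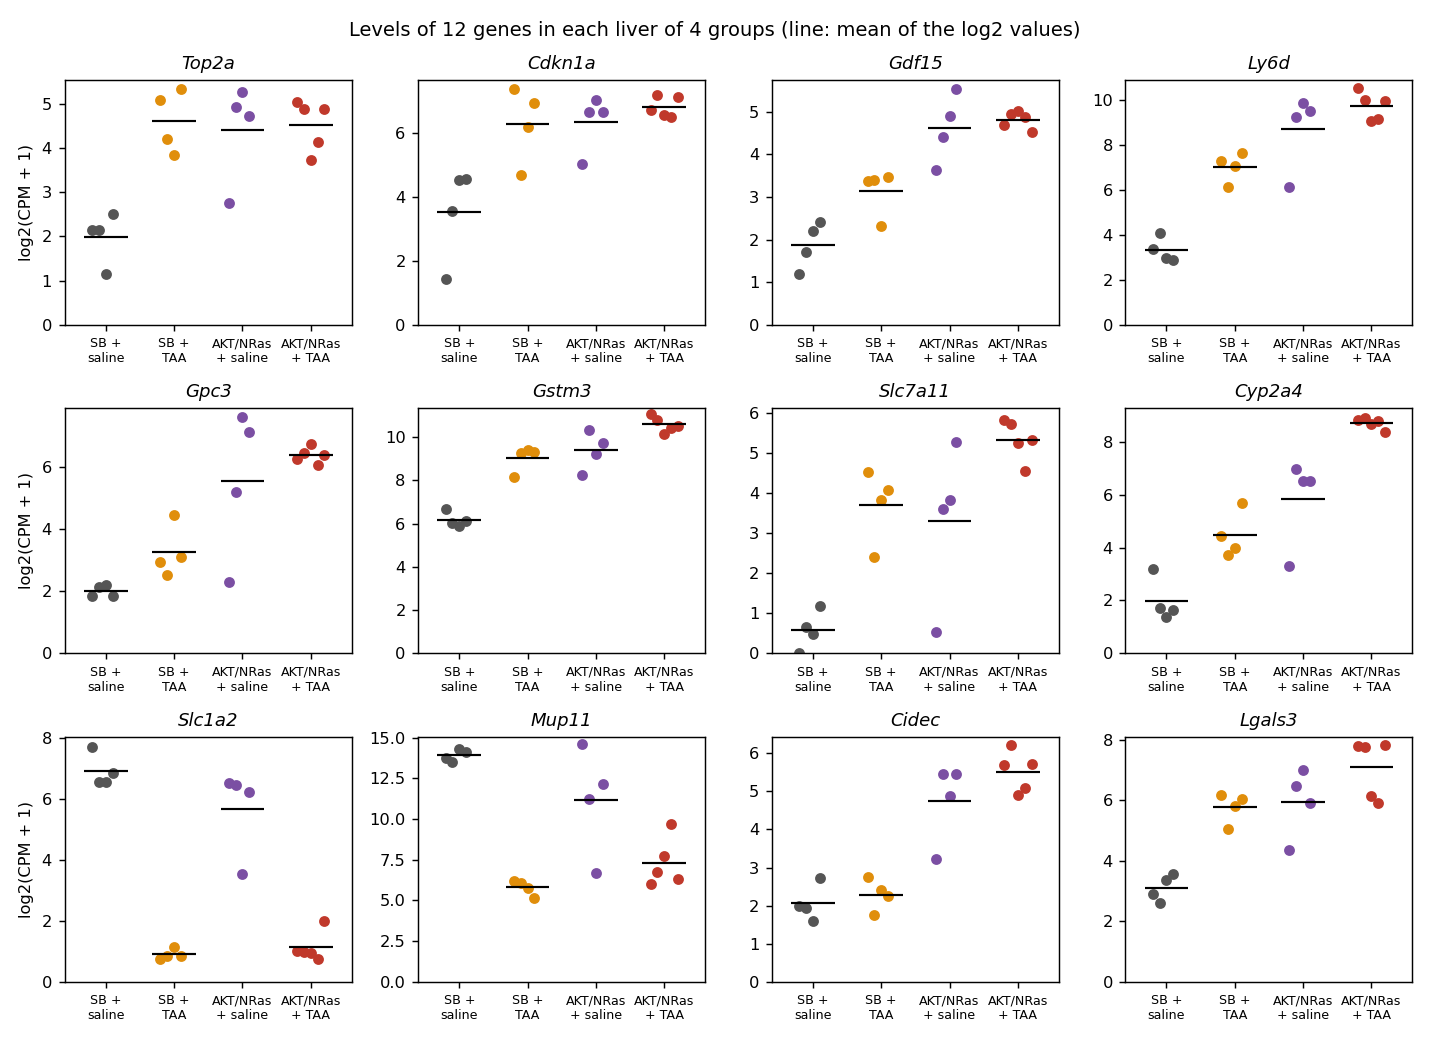
Levels of 12 genes on a log2(CPM + 1) scale in each liver of SB + saline, SB + TAA, SB/AKT/NRas + TAA and the oncogenes with saline; each point is 1 liver and the line is the mean of the log2 values. Cyp2a4 is highest in the 5 combination livers (334 to 478 CPM), Slc1a2 is at or below 3.01 CPM in every liver given TAA, and Cidec is at or above 8.35 CPM in every liver given the AKT and NRas plasmids and at or below 5.71 CPM in the others.

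Genes of perivenous hepatocytes fell in part. Of 17 of these, which mark the cells around the central vein, 6 fell and 0 rose (median −0.77), and the summed level was 977 to 1252 CPM in SB/AKT/NRas + TAA against 3014 to 5113 CPM in SB + saline. Slc1a2, the glutamate transporter of the innermost hepatocyte layer (ENSMUSG00000005089, chromosome 2, 102658659 to 102790784), was at 1, 0.947, 0.941, 0.688 and 3.01 CPM in the livers of SB/AKT/NRas + TAA and 206, 92.1, 92.2 and 115 CPM in those of SB + saline. It was near 0 in all 5 treated livers (−6.46 ± 0.49, edgeR adjusted p = 3.92e-09). Glul, the glutamine synthetase of the same cells, was at 102, 94.7, 85, 91.8 and 79.4 CPM against 687, 493, 439 and 318 CPM (−2.42 ± 0.27, edgeR adjusted p = 2.49e-06), and Oat, ornithine aminotransferase, at 93.8, 55.5, 24.8, 19.2 and 83.5 CPM against 735, 539, 248 and 444 CPM (−3.15 ± 0.57, edgeR adjusted p = 0.000712).

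Cyp2e1, the enzyme that activates TAA, was at 604, 618, 455, 588 and 447 CPM in the livers of SB/AKT/NRas + TAA and 2427, 1947, 1530 and 2269 CPM in those of SB + saline, with no overlap (−1.91 ± 0.35, edgeR adjusted p = 0.000777). Lhpp fell with it (17.7, 11.4, 6.27, 9.63 and 22.3 CPM against 80, 69.3, 33.3 and 54.4 CPM, −2.12 ± 0.41, edgeR adjusted p = 0.00137). Cyp1a2 was at 154, 134, 253, 211 and 117 CPM against 592, 404, 360.5 and 347 CPM (−1.29 ± 0.41, edgeR adjusted p = 0.0424) and lost its call in 11 of 19 alternatives. In these bulk tissues, fewer cells of a type and less RNA per cell cannot be told apart. Of 11 periportal genes, 1 rose, Aldh1b1 (108, 99.1, 91.2, 104 and 93 CPM against 67.2, 49.5, 44.5 and 58.6 CPM, 0.85 ± 0.23, edgeR adjusted p = 0.0196), and 1 fell, the urea cycle enzyme Arg1 (526, 514, 620.5, 683 and 549.8 CPM against 1012, 942, 974 and 1060 CPM, −0.78 ± 0.18, edgeR adjusted p = 0.00581). The rise was lost without SB + saline replicate 2 or 3, and 2 members fell without SB/AKT/NRas + TAA replicate 4. Cps1, the most abundant urea cycle enzyme, was at 936, 775, 1018, 999 and 720 CPM against 1416, 1215, 1170 and 1180 CPM, lower in every treated liver but short of the threshold (edgeR adjusted p = 0.234).

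Sex-biased liver genes moved away from the male pattern. Of 17 male-biased genes, 10 fell and 0 rose (median −1.38), while of 10 female-biased genes tested, 3 rose and 0 fell. With robust estimation 6 male-biased genes fell. Male-biased expression in mouse liver is maintained by pulsatile growth hormone acting through STAT5. Susd4, a complement regulator (ENSMUSG00000038576, chromosome 1, 182763860 to 182896591), was at 0, 0.947, 0, 0.688 and 0.251 CPM in the livers of SB/AKT/NRas + TAA and 50.5, 26.7, 19.6 and 28.7 CPM in those of SB + saline (−6.25 ± 0.66, edgeR adjusted p = 2.26e-06). It was at or near 0 in each treated liver. Hsd3b5, a steroid dehydrogenase, was at 0.334, 1.58, 9.72, 6.88 and 0.251 CPM against 137, 168, 122 and 123 CPM (−5.22 ± 1.08, edgeR adjusted p = 0.00237), and the organic anion transporter Slco1a1 at 2.67, 4.42, 81.2, 81.5 and 1 CPM against 349, 344, 337 and 357 CPM (−3.35 ± 0.87, edgeR adjusted p = 0.0138). Both were clearly higher in replicates 3 and 4 than in the other treated livers. Selenbp2 was at 122, 153, 134, 153 and 119 CPM against 463, 414, 493 and 550.1 CPM (−1.82 ± 0.32, edgeR adjusted p = 0.000468), level among the 5.

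Major urinary proteins, the pheromone carriers made by male liver, accounted for several of the largest losses. Mup11 (ENSMUSG00000073834, chromosome 4, 60658466 to 60662411) was at 63.1, 105, 208, 806 and 79.2 CPM in the livers of SB/AKT/NRas + TAA and 13780, 11500, 20340 and 17830 CPM in those of SB + saline, so that replicate 4 kept the most and still lay far below the lowest control (−5.97 ± 0.97, edgeR adjusted p = 0.000199). Mup12 was at 3.34, 7.89, 36.7, 72.2 and 3.76 CPM against 902, 643, 534 and 596 CPM (−4.77 ± 0.88, edgeR adjusted p = 0.000856). Mup20, in contrast, was at 5424, 6602, 13720, 13070 and 5426 CPM against 7240, 7495, 9392 and 10280 CPM, a log2 fold change of 0.04 ± 0.36 (edgeR adjusted p = 0.971), with replicates 3 and 4 above all controls and the other 3 below all of them. Mup genes are near-identical copies, so levels of single members are uncertain.

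Cyp2a4, a female-biased steroid hydroxylase (ENSMUSG00000074254, chromosome 7, 26307169 to 26315088), was at 453, 478, 415, 446 and 334 CPM in the livers of SB/AKT/NRas + TAA and 8.13, 2.27, 1.6 and 2.14 CPM in those of SB + saline. It was the steepest rise among genes above 100 CPM in the treated livers, and the 5 livers were alike (6.88 ± 0.70, edgeR adjusted p = 6.28e-07). It has a close paralog, which makes its counts uncertain. Cyp2b9 was at 27.7, 20.8, 23.8, 15.1 and 7.52 CPM against 0, 1.14, 0 and 0.856 CPM (5.26 ± 0.84, edgeR adjusted p = 0.000174) and Cyp3a44 at 4, 4.73, 2.82, 1.03 and 5.76 CPM against 1.28, 0, 0 and 0.428 CPM (2.94 ± 0.78, edgeR adjusted p = 0.0149), the latter with overlapping groups.

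Among 20 drug-metabolizing cytochrome P450 genes, 8 fell and 2 rose (median −0.95). Cyp2c37 was at 31.4, 13.2, 15.4, 24.8 and 12.8 CPM against 237, 124, 139.9 and 120.3 CPM (−3.00 ± 0.44, edgeR adjusted p = 6.77e-05), Cyp2c29 at 484, 468, 585, 627 and 316 CPM against 1854, 2199, 1346 and 2002 CPM (−1.90 ± 0.40, edgeR adjusted p = 0.00258) and Cyp2d26 at 319.7, 292, 365, 349 and 251 CPM against 668, 648, 579.8 and 673 CPM (−1.03 ± 0.16, edgeR adjusted p = 9.87e-05). The arachidonate epoxygenase Cyp2j5 was at 107, 96.2, 237, 216 and 128 CPM against 442, 360.4, 379.7 and 387 CPM (−1.32 ± 0.24, edgeR adjusted p = 0.000814), higher in replicates 3 and 4. No treated liver reached a control in any of these, although the Cyp2c and Cyp2d families hold close copies that share reads. The fits without a filter and of the 9 livers alone each gave 13 falling members.

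Of 19 genes of bile acid synthesis and transport, 8 fell and 2 rose (median −0.67). Cyp7a1, the rate-limiting enzyme of the classic route, was at 36.7, 45.1, 34.8, 46.8 and 44.9 CPM in the livers of SB/AKT/NRas + TAA and 209.7, 102, 73.8 and 104 CPM in those of SB + saline (−1.56 ± 0.37, edgeR adjusted p = 0.00768). Cyp7b1 of the alternative route was at 26.7, 39.1, 85.6, 106 and 39.3 CPM against 354, 232, 241 and 268 CPM (−2.21 ± 0.54, edgeR adjusted p = 0.00883), Cyp8b1, which makes cholic acid, at 36.7, 28.7, 81.8, 67.7 and 71.9 CPM against 202, 235, 229 and 194 CPM (−1.90 ± 0.53, edgeR adjusted p = 0.0212), and the uptake carrier Slc10a1 at 108, 88.7, 269, 304 and 80.7 CPM against 636, 534, 480 and 509.5 CPM (−1.67 ± 0.53, edgeR adjusted p = 0.0441). Their groups did not overlap, although replicates 3 and 4 kept more Cyp7b1 and Slc10a1 than the rest. The members that rose export bile acids and conjugates to blood: Abcc4 (34.7, 38.2, 26.6, 31.3 and 29.6 CPM against 5.99, 4.55, 0.401 and 3 CPM, 3.22 ± 0.37, edgeR adjusted p = 3.09e-06) and Slc51b (7.34, 7.26, 4.08, 5.16 and 9.77 CPM against 2.14, 1.14, 2.41 and 1.71 CPM, 1.82 ± 0.52, edgeR adjusted p = 0.025), whose call 6 of 19 alternatives ended. The number falling was 3 without SB/AKT/NRas + TAA replicate 1 or 2 and with robust estimation, 4 without replicate 5 or without SB + saline replicate 1, and 5 without SB + saline replicate 2 or 4. Of the rising members, 1 was left without SB + saline replicate 1, 2 or 4 or SB/AKT/NRas + TAA replicate 5.

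Of 28 secreted plasma proteins, 12 fell and 1 rose (median −0.55), with a summed level of 101841 to 141077 CPM against 167379 to 196066 CPM. Apolipoprotein A1 (Apoa1) was at 7314, 8872, 6694, 7263 and 8016 CPM in the livers of SB/AKT/NRas + TAA and 14420, 15330, 17440 and 19210 CPM in those of SB + saline (−1.12 ± 0.21, edgeR adjusted p = 0.00107). C8a of the complement attack complex was at 129, 138, 219, 208 and 133 CPM against 405, 413, 499 and 538 CPM (−1.49 ± 0.22, edgeR adjusted p = 6.36e-05), prothrombin (F2) at 592, 623, 767, 731 and 578 CPM against 1100, 1161, 1153 and 1214 CPM (−0.81 ± 0.17, edgeR adjusted p = 0.00325), and protein C (Proc) at 189, 196, 280.3, 286 and 195 CPM against 448, 435, 408 and 468 CPM (−0.94 ± 0.20, edgeR adjusted p = 0.00279). Albumin (Alb) was at 22540, 23810, 33200, 32370 and 25340 CPM against 45350, 41930, 42310 and 52190 CPM (−0.73 ± 0.22, edgeR adjusted p = 0.0317), a call that 8 of 19 alternatives ended. The member that rose, Mbl2, lost its call with limma-voom, in the replicate block fit and without any 1 control or SB/AKT/NRas + TAA replicate 3 or 4. The count of falling members was 7 with the omission of SB + saline replicate 4 or of SB/AKT/NRas + TAA replicate 1 or 5, and 20 in the fit of the 9 livers alone.

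The protease inhibitor Serpina1e was at 81.1, 166, 1741, 1462 and 249.8 CPM in the livers of SB/AKT/NRas + TAA and 10470, 13200, 16830 and 19280 CPM in those of SB + saline (−4.34 ± 0.93, edgeR adjusted p = 0.0032), and replicates 3 and 4 again kept the most. Serpina3k was at 2196, 2730, 4281, 5265 and 2900 CPM against 9639, 9908, 10240 and 12270 CPM (−1.60 ± 0.35, edgeR adjusted p = 0.00425). Both belong to families of near-identical copies. Carbonic anhydrase 3 (Car3) was at 2446, 2814, 5449, 5838 and 1901 CPM against 11960, 14920, 11030 and 13050 CPM (−1.79 ± 0.46, edgeR adjusted p = 0.0136), while Apoa4, which is made with triglyceride-rich lipoproteins, went the other way at 3689, 5555, 2004, 1530 and 4550 CPM against 182, 194, 209 and 238 CPM (4.08 ± 0.48, edgeR adjusted p = 3.93e-06).

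Acute phase genes divided: of 15, 3 rose and 4 fell. Saa1 was at 179, 113, 117, 129.6 and 131 CPM against 2862, 398, 4655 and 2551 CPM (−4.29 ± 0.60, edgeR adjusted p = 4.07e-05) and Saa2 at 145, 92.8, 73.7, 94.2 and 97 CPM against 2011, 308, 4693 and 2171 CPM (−4.51 ± 0.72, edgeR adjusted p = 0.000173). The treated livers were level, and the low control, replicate 2, was still above them. Orm2, an alpha-1 acid glycoprotein, rose from the same list (619, 574, 245, 399.9 and 492 CPM against 42.8, 11.9, 93.8 and 37.7 CPM, 3.31 ± 0.55, edgeR adjusted p = 0.000261), as did the iron-binding lipocalin Lcn2 (627, 1005, 144, 126 and 1197 CPM against 26.1, 16.5, 66.2 and 63.4 CPM, 3.84 ± 0.90, edgeR adjusted p = 0.00622). Both Saa and Orm are families of close copies.

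Of 33 genes of amino acid catabolism and the urea cycle, 8 fell and 0 rose (median −0.53), among them proline dehydrogenase Prodh (43.7, 37.2, 54.2, 58.5 and 29.8 CPM against 160.5, 119, 109 and 147 CPM, −1.59 ± 0.31, edgeR adjusted p = 0.00141) and ornithine transcarbamylase Otc (221, 215, 384, 415 and 164 CPM against 721, 616, 613 and 602 CPM, −1.19 ± 0.31, edgeR adjusted p = 0.0126). That count was 3 with library size alone, 17 in the fit of the 9 livers alone, and 5 without SB + saline replicate 1 or SB/AKT/NRas + TAA replicate 1, 2 or 5. Among 20 transcription factors of the liver, 5 fell and 2 rose. Prox1 (44.4, 54, 63.3, 68.4 and 43.4 CPM against 104, 132, 90.6 and 131 CPM, −1.07 ± 0.21, edgeR adjusted p = 0.00174), the xenobiotic receptor CAR (Nr1i3; 34.7, 34.1, 30.7, 34.4 and 23.6 CPM against 106, 69.9, 65 and 86 CPM, −1.38 ± 0.32, edgeR adjusted p = 0.00638), Cebpa (−1.05 ± 0.26), Foxa3 and Ppara (−0.90 ± 0.22) were lower, while Klf6, an injury-induced factor, was at 106, 112, 62.7, 64 and 119 CPM against 7.7, 11.4, 12.8 and 13.3 CPM (3.03 ± 0.45, edgeR adjusted p = 7.07e-05).

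**Figure D3:**
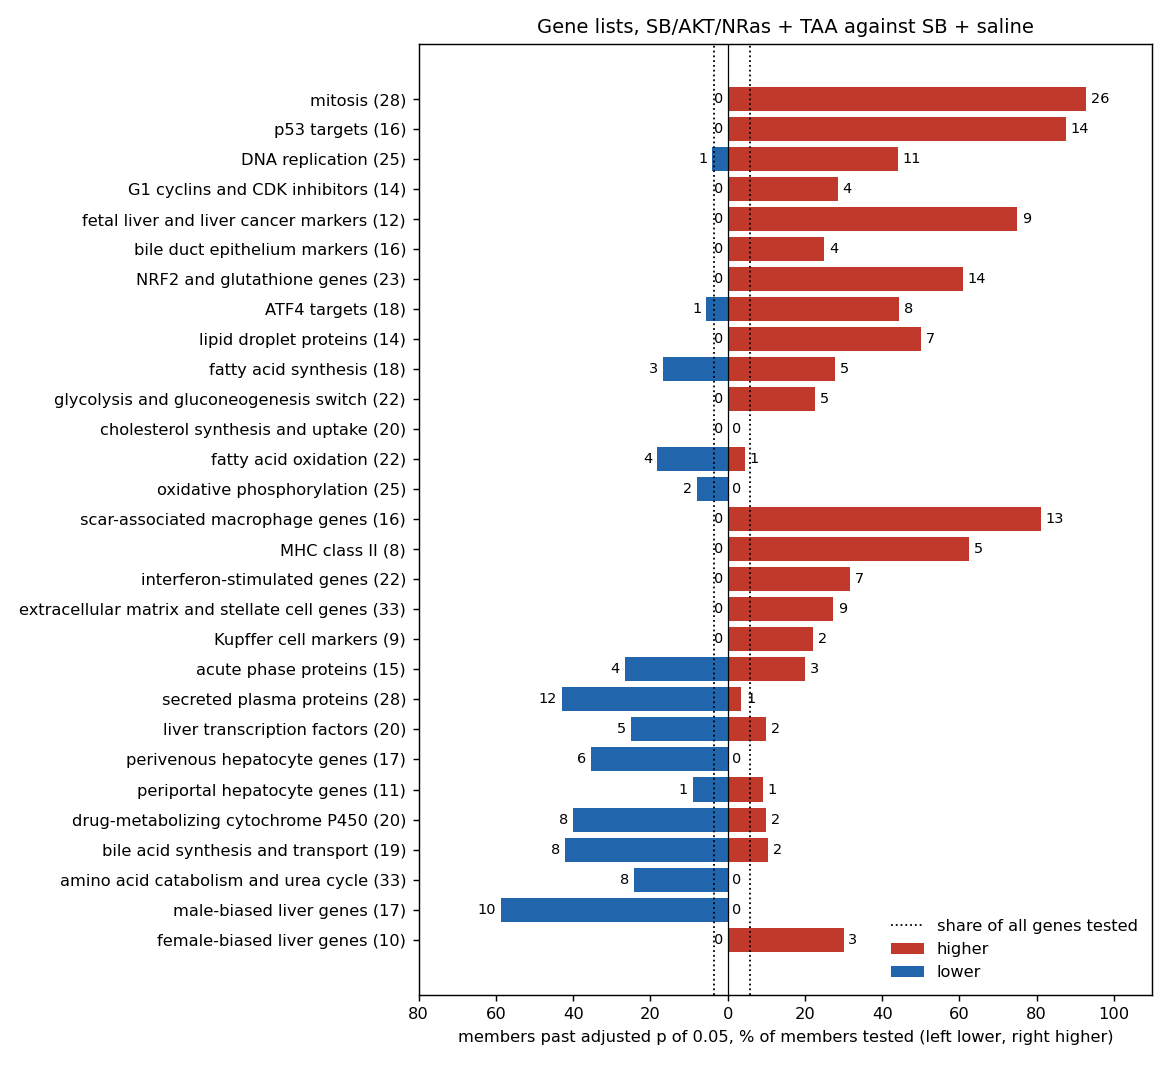
Share of the tested members of 29 gene lists (number tested in brackets) that passed the edgeR adjusted p of 0.05 in SB/AKT/NRas + TAA against SB + saline, higher to the right and lower to the left; digits give the number of genes and dotted lines the shares over all 19381 genes (5.7% higher, 3.55% lower). Mitosis (26 of 28), p53 targets (14 of 16) and scar-associated macrophage genes (13 of 16) reach furthest to the right, and male-biased genes (10 of 17) furthest to the left.

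Lipid storage genes rose, while the fatty acid synthesis list split. Of 14 lipid droplet proteins, 7 rose and 0 fell. Cidec, which fuses droplets into larger ones (ENSMUSG00000030278, chromosome 6, 113424634 to 113435760), was at 50.4, 72.9, 28.9, 33 and 51.4 CPM in the livers of SB/AKT/NRas + TAA and 3, 2.84, 2 and 5.57 CPM in those of SB + saline (3.80 ± 0.46, edgeR adjusted p = 4.9e-06). Its relative Cidea was at 149, 172, 55.5, 99.4 and 91 CPM against 1.28, 18.2, 3.61 and 5.57 CPM (4.07 ± 0.50, edgeR adjusted p = 6.01e-06), the fatty acid importer Cd36 at 404, 396, 245, 221 and 342 CPM against 81.8, 77.9, 61.4 and 59.5 CPM (2.20 ± 0.28, edgeR adjusted p = 1.03e-05), and the droplet coat protein Plin2 at 843, 842, 578, 544 and 915 CPM against 277, 341, 355 and 336 CPM (1.19 ± 0.26, edgeR adjusted p = 0.00424). Groups were apart in each. Mogat1, of triglyceride synthesis, was at 9.01, 9.15, 9.72, 9.28 and 6.77 CPM against 1.28, 1.71, 1.6 and 2.57 CPM (2.26 ± 0.37, edgeR adjusted p = 0.000208), and Hilpda, an inhibitor of lipolysis, at 10.3, 13.2, 7.21, 5.16 and 23.6 CPM against 0.856, 2.27, 2.41 and 3.42 CPM (2.41 ± 0.47, edgeR adjusted p = 0.00164).

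Of 18 fatty acid synthesis genes, 5 rose and 3 fell. Elovl6, an elongase, was at 660.1, 1012, 1084, 961 and 582 CPM against 388, 197, 170.4 and 149 CPM (1.93 ± 0.31, edgeR adjusted p = 0.000192) and Me1, the NADPH-making malic enzyme, at 143, 198, 221, 231 and 124 CPM against 130.5, 79.6, 80.6 and 68.9 CPM (1.03 ± 0.23, edgeR adjusted p = 0.00471). Scd2, the desaturase of fetal and extrahepatic tissue, was at 103, 137, 80, 60.9 and 146 CPM against 5.56, 5.12, 5.61 and 4.28 CPM (4.35 ± 0.73, edgeR adjusted p = 0.000298), whereas Scd1, the abundant adult form, was at 5162, 7252, 8937, 5935 and 5330 CPM against 4695, 7591, 4548 and 5049 CPM with no call (0.25 ± 0.25, edgeR adjusted p = 0.591). Pnpla3, a lipase of the droplet, was at 7.68, 15.2, 16, 10.7 and 12.5 CPM against 1.28, 0, 0 and 1.28 CPM (4.13 ± 0.87, edgeR adjusted p = 0.00282). The 3 that fell were Dgat2, Srebf1 and Acss2, of which 0 fell with library size alone and 1 without SB + saline replicate 1 or 2 or SB/AKT/NRas + TAA replicate 1, 2 or 5. Of 20 genes of cholesterol synthesis and uptake, 0 rose and 0 fell by edgeR, limma-voom or DESeq2, with 1 higher and 1 lower at an unadjusted p under 0.05, and their median log2 fold change was −0.12.

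Of 22 fatty acid oxidation genes, 4 fell and 1 rose. Among them, Acaa1a, a thiolase of the peroxisome, was at 74.8, 97.5, 84.3, 91.5 and 61.6 CPM against 196, 120.5, 146 and 144 CPM (−0.89 ± 0.23, edgeR adjusted p = 0.0142). Acaa2, a thiolase of the mitochondrion (−0.61 ± 0.17), and the fatty acid receptor Ppara fell too (edgeR adjusted p = 0.0189 and 0.0079). Fgf21, the hormone that PPARA and stress induce, rose (31.7, 46.1, 23.5, 14.8 and 39.9 CPM against 1.28, 2.27, 2.41 and 2.14 CPM, 3.93 ± 0.58, edgeR adjusted p = 6.77e-05). Without SB + saline replicate 1, 2 members fell. Of 25 oxidative phosphorylation genes, the mitochondrially encoded mt-Co1 (−0.97 ± 0.25) and mt-Nd4 (−0.68 ± 0.18) fell (edgeR adjusted p = 0.0135 and 0.016), beside the lower mitochondrial share given above, and 7 fell with DESeq2, 0 with library size alone and 1 without SB/AKT/NRas + TAA replicate 5.

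Of 22 glycolysis and gluconeogenesis genes, 5 rose and 0 fell. Pkm, the pyruvate kinase of fetal and proliferating cells, was at 46.1, 41.3, 28.5, 19.9 and 60.1 CPM against 8.56, 7.96, 11.2 and 8.56 CPM (2.10 ± 0.45, edgeR adjusted p = 0.00316), and hexokinase 2 (Hk2), which adult hepatocytes hardly express, at 18.7, 19.9, 8.47, 7.22 and 18 CPM against 0.428, 1.71, 1.2 and 2.57 CPM (3.28 ± 0.77, edgeR adjusted p = 0.0066). Among the others that rose, the enolase Eno1 was at 91.1, 91.5, 80, 67.7 and 86.2 CPM against 47.5, 46.6, 52.9 and 49.7 CPM (0.76 ± 0.20, edgeR adjusted p = 0.0145). The count was 3 without SB + saline replicate 2, 3 or 4 or SB/AKT/NRas + TAA replicate 2. Of 18 targets of the stress factor ATF4, 8 rose and 1 fell. Besides Gdf15, Slc7a11 and Fgf21, these were Ddit3 (23, 15.5, 31, 21.3 and 19.6 CPM against 5.14, 9.66, 12 and 10.7 CPM, 1.23 ± 0.28, edgeR adjusted p = 0.00496), Slc3a2, the partner of Slc7a11 (46.7, 52.1, 39.8, 27.9 and 57.6 CPM against 22.3, 25.6, 25.7 and 18.8 CPM, 0.96 ± 0.22, edgeR adjusted p = 0.00468), Trib3, Ddit4 and Atf5, and the serine hydroxymethyltransferase Shmt2 fell (46.7, 52.4, 54.9, 55.4 and 46.1 CPM against 91.2, 80.2, 83.4 and 61.6 CPM, −0.63 ± 0.16, edgeR adjusted p = 0.00999). Of 15 circadian clock genes, Hlf fell (9.35, 17.4, 16.6, 20.6 and 7.52 CPM against 45.4, 27.3, 33.3 and 30.4 CPM, −1.27 ± 0.27, edgeR adjusted p = 0.00331) and 14 did not pass. Without SB + saline replicate 1, 3 fell.

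Genes of macrophages in scarred liver rose widely. Of 16 scar-associated macrophage genes, 13 rose and 0 fell (median 2.78), from a summed 128 to 164 CPM in SB + saline to 2061, 2357, 714, 601 and 5609 CPM in SB/AKT/NRas + TAA. In treated replicates 1, 2 and 5, but not in replicates 3 and 4 or the controls, most of the sum is Spp1. This gene encodes osteopontin (ENSMUSG00000029304, chromosome 5, 104435118 to 104441050), which bile duct and tumor cells also make. Spp1 was at 1218, 1528, 303, 202 and 4641 CPM in the livers of SB/AKT/NRas + TAA and 45.4, 43.8, 50.1 and 40.2 CPM in those of SB + saline (5.13 ± 0.99, edgeR adjusted p = 0.00134). Replicate 5 held the most and replicate 4 the least. Lgals3, galectin 3 (ENSMUSG00000050335, chromosome 14, 47367751 to 47386160), was at 220.3, 216, 69.6, 58.5 and 228 CPM against 6.42, 5.12, 9.22 and 10.7 CPM (4.31 ± 0.56, edgeR adjusted p = 1.33e-05), Cd63 at 291, 311, 163, 189 and 341 CPM against 9.42, 10.2, 20.4 and 20.6 CPM (4.08 ± 0.53, edgeR adjusted p = 1.12e-05) and Cd9 at 124, 116, 75.6, 58.8 and 145 CPM against 10.7, 15.9, 21.2 and 12.8 CPM (2.77 ± 0.34, edgeR adjusted p = 6.63e-06). These are expressed by other cells as well. Cd68, a general macrophage marker, was at 33.4, 24, 16.3, 11.7 and 21.8 CPM against 2.57, 6.82, 7.62 and 6.85 CPM (1.84 ± 0.35, edgeR adjusted p = 0.00129), and the monocyte receptor Cx3cr1 at 9.35, 8.84, 4.7, 5.5 and 15.5 CPM against 0.428, 2.84, 0.802 and 1.28 CPM (2.79 ± 0.56, edgeR adjusted p = 0.00194). All 5 treated livers exceeded all controls in each of these 6 genes.

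Of 9 markers of resident Kupffer cells, 2 rose: the general macrophage marker Adgre1 (16, 13.6, 9.72, 9.28 and 15.3 CPM against 4.28, 5.68, 6.82 and 3.85 CPM, 1.31 ± 0.32, edgeR adjusted p = 0.0097) and Cd5l (149.5, 122, 59.6, 71.2 and 79.4 CPM against 35.5, 44.9, 67 and 51.4 CPM, 0.95 ± 0.27, edgeR adjusted p = 0.0261). The defining markers Clec4f (109.8, 104, 60.8, 78.7 and 81.7 CPM against 34.7, 38.6, 85 and 70.2 CPM) and Timd4 (5.01, 8.21, 3.76, 7.56 and 6.26 CPM against 5.99, 3.98, 5.61 and 4.28 CPM) did not pass (edgeR adjusted p = 0.184 and 0.689). The count was 1 without SB + saline replicate 1, 2 or 4 or SB/AKT/NRas + TAA replicate 1 or 2. Of 8 MHC class II genes, 5 rose, led by H2-Aa (67.8, 62.2, 51.4, 39.2 and 104 CPM against 19.3, 27.9, 22.1 and 19.7 CPM, 1.56 ± 0.39, edgeR adjusted p = 0.00962), H2-Eb1 (1.37 ± 0.34, edgeR adjusted p = 0.00999) and the invariant chain Cd74 (1.25 ± 0.33, edgeR adjusted p = 0.0155). The highest liver was replicate 5, and without it 2 rose, or 3 without SB + saline replicate 1. Of 22 interferon-stimulated genes, 7 rose, among them Usp18 (22.4, 19.2, 11.6, 15.8 and 19.6 CPM against 5.14, 2.84, 5.21 and 4.71 CPM, 1.95 ± 0.32, edgeR adjusted p = 0.000282) and Isg15 (20.4, 19.9, 18.2, 16.5 and 25.1 CPM against 6.42, 6.25, 11.6 and 11.6 CPM, 1.14 ± 0.23, edgeR adjusted p = 0.00229). That count was 2 without SB + saline replicate 2 and 3 without replicate 1.

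Of 33 matrix and stellate cell genes, 9 rose and 0 fell (median 1.25), at a summed 896 to 1770 CPM against 710 to 859 CPM. Col1a2, a chain of type I collagen, was at 100.1, 121, 46.7, 44 and 202 CPM in the livers of SB/AKT/NRas + TAA and 30.4, 13.1, 24.9 and 27.8 CPM in those of SB + saline (2.09 ± 0.52, edgeR adjusted p = 0.0106). Col3a1 was at 102, 91.8, 38.9, 49.2 and 146 CPM against 24.4, 14.8, 20.1 and 18 CPM (2.14 ± 0.54, edgeR adjusted p = 0.0114) and Col1a1 at 42, 33.1, 12.9, 8.94 and 48.6 CPM against 5.56, 5.68, 6.42 and 3.85 CPM (2.44 ± 0.69, edgeR adjusted p = 0.0243). Loxl2, a collagen cross-linker, was at 23.4, 24.9, 8.78, 9.28 and 26.1 CPM against 2.57, 1.71, 0 and 1.28 CPM (3.74 ± 0.66, edgeR adjusted p = 0.000503), its relative Lox at 1.33, 3.47, 0.627, 0.688 and 4.01 CPM against 0, 0, 0.401 and 0 CPM (a ratio of 19.2 with a 95% counting interval of 3.23 to 781, edgeR adjusted p = 0.0219), and Sparc at 153, 144, 67.7, 62.6 and 212 CPM against 40.2, 35.8, 52.5 and 36.8 CPM (1.63 ± 0.35, edgeR adjusted p = 0.00316). The collagens were highest in replicate 5 and low in replicates 3 and 4, close to the controls. The number of rising members was unstable: 3 with limma-voom, 19 with library size alone, 4 without SB/AKT/NRas + TAA replicate 5, 14 without replicate 4, and 5 without replicate 1 or any 1 of the controls. Col1a1 itself kept its call in 10 of 19 alternatives.

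Few lymphocyte and neutrophil genes passed the test. Of 15 neutrophil genes, at a summed 27.5 to 82.2 CPM against 10.2 to 32.1 CPM, Retnlg rose (3, 2.84, 2.51, 1.03 and 5.26 CPM against 0, 0, 0.401 and 0.428 CPM, a ratio of 13.7 with a 95% counting interval of 3.61 to 116, edgeR adjusted p = 0.0125), a call lost without SB + saline replicate 1, and S100a8 did not pass (11.3, 6.31, 8.15, 6.19 and 19.3 CPM against 0.856, 1.14, 4.81 and 5.57 CPM, edgeR adjusted p = 0.0542). That share (6.67%) is near the 5.7% of all genes. The median of the 15 was 1.42, or 1.29 with genes at 0 in a group set to their bound, against 0.072 over all genes. The count was 3 with DESeq2 or in the 9 livers alone, 4 with library size alone, 5 with no filter and 0 with filterByExpr. Of 14 T and NK cell genes, Ccl5 rose (12, 9.78, 19.1, 12.7 and 20.8 CPM against 1.28, 5.12, 4.01 and 0.856 CPM, 2.45 ± 0.47, edgeR adjusted p = 0.00135), and Cd4, at 0 in all 5 treated livers and up to 1.6 CPM in controls, was at least 5.45-fold lower (edgeR adjusted p = 0.0335), a call that 8 of 19 alternatives ended. Of 7 B and plasma cell genes, Ighm, the heavy chain of IgM, rose (48.4, 62.2, 66.8, 74.6 and 34.8 CPM against 9.42, 9.1, 14.4 and 3.85 CPM, 2.62 ± 0.38, edgeR adjusted p = 5.34e-05). It was highest in replicates 3 and 4, in contrast to the macrophage genes. Of 9 sinusoidal endothelial genes, Lyve1 rose (15.7, 20.5, 12.5, 9.97 and 19.6 CPM against 1.71, 2.84, 5.61 and 5.14 CPM, 2.00 ± 0.49, edgeR adjusted p = 0.00884), while the defining Stab2 was at 17, 15.8, 13.8, 14.1 and 11 CPM against 21, 19.3, 22.1 and 16.7 CPM (edgeR adjusted p = 0.202). Of 6 capillary genes only Cd36, which hepatocytes also express, passed, although 5 were higher at an unadjusted edgeR p under 0.05. Their median was 2.27, or 1.46 with genes at 0 in a group set to their bound. With DESeq2 or filterByExpr 2 rose, and 3 with no filter, library size alone or in the 9 livers alone.

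Contaminating tissue was checked by marker lists. Hepatocyte markers defined the tissue in all livers, at a summed 58845 to 84580 CPM in SB/AKT/NRas + TAA and 107266 to 126146 CPM in SB + saline, with 5 of 10 lower, or 2 without SB/AKT/NRas + TAA replicate 1 or 5. Of 10 skeletal muscle markers, 7 pancreas acinar and 4 mesothelium markers tested, 0 passed the edgeR test in either direction, nor with limma-voom or DESeq2, and at an unadjusted p under 0.05 4 pancreas markers were higher and 0 of the other 2 lists moved. Pancreas markers summed to 42.4 CPM in SB/AKT/NRas + TAA replicate 5 and to at most 4.39 CPM in the other 8 livers. Of 2 adipocyte markers tested, Cfd fell: it had 0 counts in all 5 treated livers and was at 3, 39.2, 0.401 and 4.71 CPM in the controls, at least 64.1-fold lower (edgeR adjusted p = 0.002), so that control replicate 2 carried most of it. Of 5 erythroid markers, the heme synthesis enzyme Alas2 fell (36, 33.5, 82.5, 61.5 and 31.3 CPM against 104, 110.3, 107 and 102 CPM, −1.11 ± 0.28, edgeR adjusted p = 0.012). Of the fibrosis panel for PCR in these models, 4 of 23 genes rose and 2 fell, and of the immune panel 3 of 21 rose. The 4 became 1 without SB + saline replicate 1, 3 or 4 or SB/AKT/NRas + TAA replicate 1 or 5, and the 2 became 0 without SB + saline replicate 1 or SB/AKT/NRas + TAA replicate 5 and 1 without any other control or SB/AKT/NRas + TAA replicate 1 or 2. The study chose those panels itself, so they are not independent of its aims.

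The 5 treated livers differed among themselves in a recurring order. Replicates 1, 2 and 5 had human NRAS of 34, 47.6 and 75.7 CPM and replicates 3 and 4 of 18.5 and 17.9 CPM. Summed mitosis genes were 295, 262 and 254 CPM in the first 3 and 143 and 131 CPM in the other 2. Summed male-biased genes went the opposite way, at 12070, 14249 and 13702 CPM against 33802 and 34707 CPM, and so did plasma proteins, at 101841, 106764 and 105040 CPM against 139903 and 141077 CPM. Mup20 alone gave 5424, 6602 and 5426 CPM of the male-biased sum in the first 3 and 13720 and 13070 CPM in the other 2. Of the named male-biased members, Hsd3b5, Slco1a1 and Cyp7b1 were also highest in replicates 3 and 4, whereas Selenbp2 and Susd4 did not follow the order. The sums of the glutathione genes (10641 to 12572 CPM) and of the perivenous genes (977 to 1252 CPM) did not follow that order. Much of the first sum is Gstm1 (6361 to 7772 CPM). Of the named members, Gstm3, Gstm2, Gsta1, Pgd, Slc7a11, Oat and Lhpp were lowest in replicates 3 and 4. Gstm1, Cbr3, Glul, Cyp2e1 and Cyp1a2 were not, and Slc1a2 was near 0 in all 5 livers. TMM scaling factors, by which all levels in CPM are scaled, followed the order too. They were 1.13, 1.123 and 1.174 in replicates 1, 2 and 5 and 0.968 and 0.943 in replicates 3 and 4. With 5 livers no relation between these measures was tested.

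**Figure D4:**
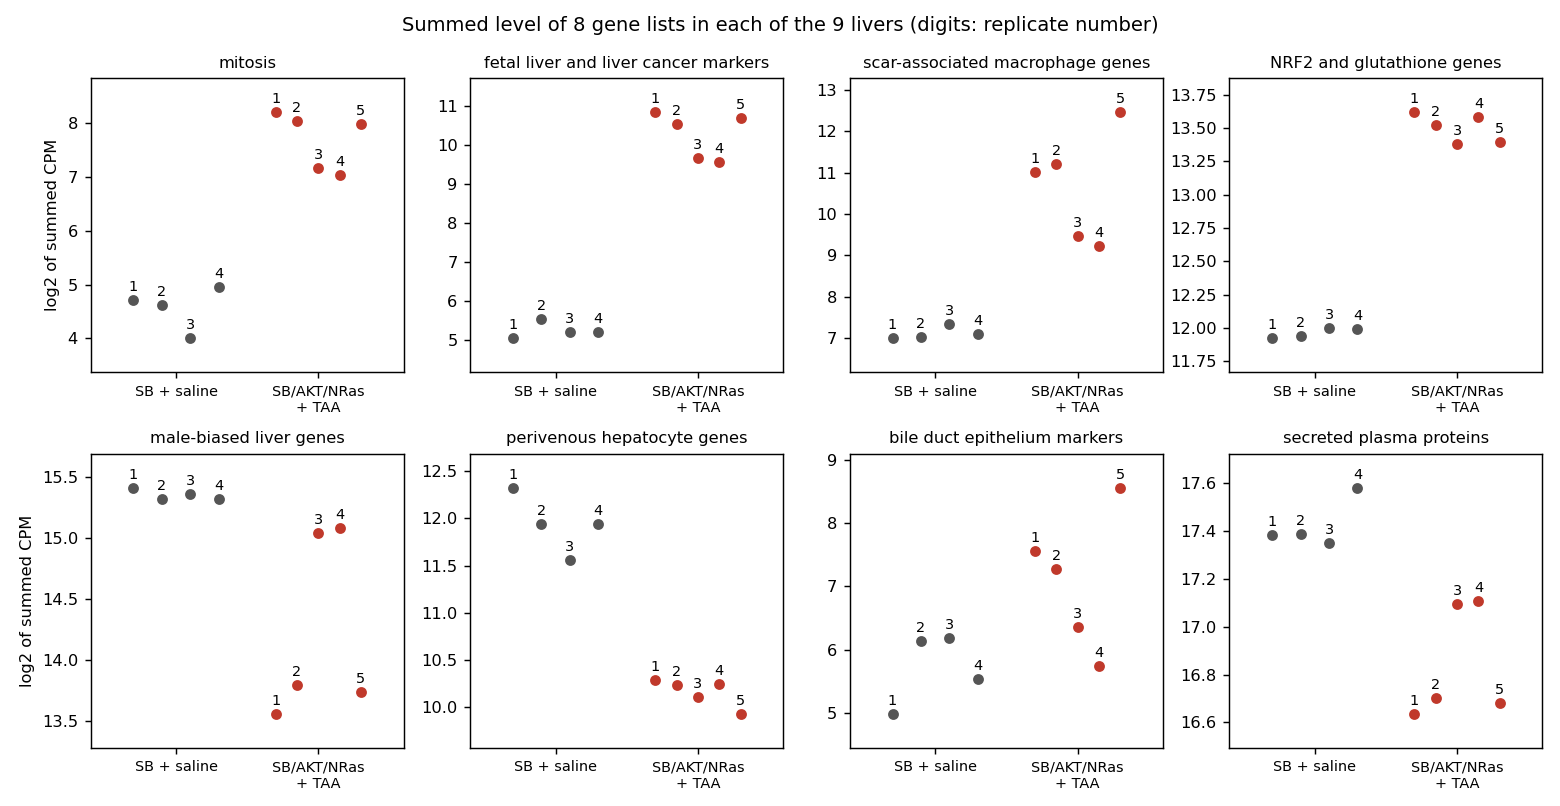
Summed level of the tested members of 8 gene lists, on a log2 scale, in each of the 4 SB + saline and 5 SB/AKT/NRas + TAA livers; each point is 1 liver and the digit its replicate number. Replicates 3 and 4 of SB/AKT/NRas + TAA lie closer to the controls in the mitosis, fetal, macrophage, male-biased, bile duct and plasma protein lists, and among the other treated livers in the glutathione and perivenous lists.

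The combination was then set beside its parts, all against the same 4 control livers. SB + TAA had 809 called genes (4.17%), or 368 without its replicate 4, which holds skeletal muscle transcripts, the oncogenes with saline 1168 (6.03%), or 1978 (10.2%) without their replicate 1, the lowest in human NRAS, and SB/AKT/c-Met + TAA 583 (3.01%). On the adjusted p alone, 3.48%, 5.56% and 2.68% of all genes rose in these groups and 2.51%, 2.84% and 1.07% fell. Mitosis members rose in 24 of 28, 26 of 28 and 23 of 28 in these groups, against 26 of 28 in the combination, and in 20 with TAA alone once its replicate 4 was left out. p53 targets rose in 12, 11 and 11 of 16, against 14, and in 7 with TAA alone without that liver. Top2a was at 32.9, 17.4, 13.5 and 39.5 CPM in SB + TAA, 5.72, 29.6, 37.5 and 25.7 CPM in SB/AKT/NRas + saline and 19.6, 32, 27.3 and 27 CPM in SB/AKT/c-Met + TAA, which overlap the 12.2 to 32 CPM of the combination. SB/AKT/NRas + saline replicate 1 stood apart with 5.72 CPM, near the controls.

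Other lists had unlike counts in the parts, given here side by side. Lipid droplet members rose in 0 of 14 with TAA alone and in 7 with AKT/NRas alone, as in the combination. Cidea was at 2.69, 2.37, 3.67 and 2.71 CPM in SB + TAA and 198, 239.7, 58.8 and 172 CPM in SB/AKT/NRas + saline. Perivenous genes fell in 7 of 17 with TAA alone and 3 with AKT/NRas alone, or 6 without SB/AKT/NRas + saline replicate 1. Glul was at 35, 39.1, 45.3 and 33.3 CPM in SB + TAA and 607, 489, 127 and 459 CPM in SB/AKT/NRas + saline, where replicate 3 was the low one, so the combination at 79.4 to 102 CPM lay between TAA alone and the control. Amino acid genes fell in 25 of 33 with AKT/NRas alone and 2 with TAA alone, against 8 in the combination. Male-biased genes fell in 8 of 17 with TAA alone and 5 with AKT/NRas alone, against 10 in the combination. Without SB + TAA replicate 4 the first count was 5, and without SB/AKT/NRas + saline replicate 1 the second was 14. In SB/AKT/c-Met + TAA 7 fell. Susd4 was at 0 CPM in every SB + TAA liver.

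Tested directly, 240 genes (1.24%) differed between SB/AKT/NRas + TAA and SB + TAA, 160 higher and 80 lower, or 143 (0.747%), 130 higher and 13 lower, without the liver with muscle transcripts. On the adjusted p alone (1.01% of all genes higher), lipid droplet genes were higher in 6 of 14 either way: Cidea by 5.28 ± 0.53 (edgeR adjusted p = 1.16e-06), Cidec by 3.53 ± 0.42 (edgeR adjusted p = 1.22e-05), Mogat1 by 3.52 ± 0.40 (edgeR adjusted p = 7.9e-06). Of the fetal markers, 4 of 12 were higher, among them Gpc3 by 3.04 ± 0.56 (edgeR adjusted p = 0.00223) and Tubb2b by 4.33 ± 0.60 (edgeR adjusted p = 6.2e-05). Orm2 was higher by 4.29 ± 0.58 (edgeR adjusted p = 5.86e-05). Glul was higher by 1.25 ± 0.28 (edgeR adjusted p = 0.0168), a call lost without that liver (edgeR adjusted p = 0.0751). Against SB/AKT/NRas + saline 31 genes (0.16%) differed, 21 higher (0.108%) and 10 lower (0.0516%). Human NRAS was at 12.3, 55.3, 218 and 66.1 CPM in SB/AKT/NRas + saline, lowest in replicate 1, and without that liver, an omission chosen after seeing the data, the count was 69 (0.357%), 36 higher and 33 lower. The lower ones included Slc1a2 by −5.50 ± 0.50 (edgeR adjusted p = 1.87e-07), Glul by −2.22 ± 0.27 (edgeR adjusted p = 6.75e-05), Susd4 by −4.41 ± 0.74 (edgeR adjusted p = 0.00741) and Mup11 by −4.97 ± 0.92 (edgeR adjusted p = 0.0126), a call lost without that liver (edgeR adjusted p = 0.0508). Elovl6 was higher by 1.75 ± 0.31 (edgeR adjusted p = 0.00741).

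A small set stood above the baseline and above both single treatments. By edgeR, 10 genes (0.0516% of 19381) were called higher in all 3 comparisons and 0 lower, and 9 of the 10 stayed so without the SB + TAA liver with muscle transcripts and all 10 without SB/AKT/NRas + saline replicate 1. Cyp2a4 was at 20.5, 12.2, 15 and 50.6 CPM in SB + TAA and 8.79, 124, 90.9 and 92.1 CPM in SB/AKT/NRas + saline, against 334 to 478 CPM in the combination. The differences were 4.09 ± 0.56 (edgeR adjusted p = 6.2e-05) and 2.42 ± 0.51 (edgeR adjusted p = 0.0314). Gipc2, a PDZ-domain adaptor, was at 2.35, 2.76, 2.75 and 3.52 CPM in SB + TAA and 0.879, 12.2, 15.6 and 6.18 CPM in SB/AKT/NRas + saline, while the combination had 45.7, 42, 21, 22.4 and 39.9 CPM and the baseline 1.28, 0.568, 0 and 0.856 CPM (5.58 ± 0.61, edgeR adjusted p = 1.64e-06). Bglap3, of the osteocalcin cluster, was at 0.672, 0.789, 0.306 and 2.16 CPM in SB + TAA and 0.44, 1.39, 0.852 and 16.6 CPM in SB/AKT/NRas + saline, while the combination had 37.7, 60, 11.3, 53 and 21.1 CPM and the baseline 0.428, 1.14, 0.401 and 0.428 CPM (5.91 ± 0.83, edgeR adjusted p = 4.2e-05). Abcc4 was at 8.4, 7.89, 7.34 and 9.74 CPM in SB + TAA and 5.28, 11.8, 11.7 and 12.4 CPM in SB/AKT/NRas + saline, and Ighm at 9.41, 11.8, 21.1 and 22.4 CPM in SB + TAA and 18.9, 8.7, 8.24 and 15.6 CPM in SB/AKT/NRas + saline. None of the single-treatment livers reached the lowest combination liver in Cyp2a4, Gipc2, Abcc4 or Ighm, whereas for Bglap3 1 did (16.6 CPM, above the 11.3 CPM of replicate 3). The others were 9030619P08Rik, Cyp2a22, Lmo1, Maoa, which degrades monoamines (49.5 to 88.4 CPM, against at most 16.2 and 20.9 CPM in the single treatments), and Nt5e, the ectonucleotidase CD73 (25.4 to 49.7 CPM, against at most 3.67 and 16.2 CPM). Cyp2a22 was the one lost without the liver with muscle transcripts. Cyp2a4 reached 436, 619, 319 and 304 CPM in SB/AKT/c-Met + TAA. A direct test of NRas against c-Met under TAA called 2 genes by edgeR (0.0103%), the transgenes human NRAS and human MET.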

How the data were processed

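RNA from snap-frozen liver was made into poly(A)-primed libraries with unique molecular identifiers (UMI) and sequenced on a NextSeq550. The authors split the reads by barcode (Sabre), used STAR against GRCm38 plus human NRAS and MET, removed duplicates by UMI in RNAsik with Picard and Samtools, and deposited raw counts per gene from featureCounts (version 1.6.4), kept at a mapping quality of 10 or more on the forward strand. Reads that fit close paralogs fall below that quality, so gene families are undercounted. Poly(A)-primed counts do not scale with transcript length. A second deposited count table is equal in all 1283208 cells, and the summed exon lengths in it were not used. Records per assignment class were read from a deposited summary of counts.

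Genes at 0.5 CPM or more in at least 2 of the 24 livers (19381 of 53467) entered a single fit of 6 group means, with TMM scaling and the quasi-likelihood test in edgeR 4.0.16 (R 4.3.3) and Benjamini-Hochberg adjustment. All groups share the estimate of spread. The authors' own test was limma-voom, run here as an alternative (limma 3.58.1) beside DESeq2 1.42.0, other scalings and filters, the 9 livers alone, a replicate block and the omission of each liver. The fitting steps were tested on simulated data. Each value of n is a mouse. List members are counted on the adjusted p alone, and a gene at 0 in a group is bounded against 3 counts over that group.

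Named genes were the transgenes and their mouse counterparts, the called genes of largest fold change with a mean of at least 5 CPM and groups that do not overlap, the largest gains and losses in CPM, and of each of 45 lists the members with the smallest adjusted p, the most abundant and the defining ones. Tk1, Krt19, Epcam and Timd4 were named outside that rule after their values were seen. Some genes that the rule selects are not reported here. The members and lists were chosen with earlier results of these data known. Same-numbered livers of both groups did not deviate together (correlations of −0.041 to −0.026).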

Additional observations from a re-analysis of the deposited data

Results flagged for a closer look

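The named genes gave 310 groups of 4 or 5 livers. Those with more than 3 counts in all were examined for a value far from the rest by Dixon's criterion, and 18 stood out. Chance flags about 1 in 20 groups. Among SB/AKT/NRas + TAA, replicate 5 was highest for Wfdc18 (174 CPM, others at most 12 CPM), Krt19 (20.6 CPM, others at most 5.34 CPM) and Slc1a2 (3.01 CPM, others at most 1 CPM), and lowest for Mogat1 (6.77 CPM, others at least 9.01 CPM). Replicate 4 was highest for Mup11 (806 CPM, others at most 208 CPM) and replicate 1 for Saa1 (179 CPM, others at most 131 CPM).

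Among SB + saline, replicate 1 was highest for Cyp2a4 (8.13 CPM), Cyp2c37 (237 CPM), Otc (721 CPM) and Gstm1 (1950 CPM, others 1900 to 1910 CPM), and lowest for Cd68 (2.57 CPM). Replicate 2 was highest for Ube2c (2.84 CPM), Bglap3 (1.14 CPM), Scd1 (7590 CPM) and the adipocyte gene Cfd (39.2 CPM), and lowest for Fth1 (2210 CPM) and for Krt19 (0 CPM, others at least 2 CPM). Replicate 4 was highest for Tk1 (17.1 CPM).

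For 17 named genes the effect of TAA with the AKT and NRas plasmids differed from its effect without them (an interaction term in edgeR, adjusted p between 0.00952 and 0.0419). Over all genes 147 did so (0.758%), 34 with a positive and 113 with a negative difference. The difference in log2 effect was −4.33 for Prc1, −3.12 for Cenpf, −3.62 for Cdc20, −3.11 for Top2a, −1.53 for Rfc4, −2.48 for Ccnd1 and −4.67 for Tnfrsf10b. It was −3.23 for Ly6d, −6.29 for Akr1c18, −5.37 for Afp, −3.18 for Gsta1, −4.13 for Scd2 and −5.39 for Pnpla3. It was −3.35 for Cd63, −1.48 for Isg15 and −2.8 for Ccl5, and 2.44 for Cyp2c29. A negative value means that the combination lay below the sum of both single effects on the log2 scale. The named genes were chosen in part by their change from the same 4 control livers that enter this term, so their signs are not independent of that choice. Tnfrsf10b rests on 1 control count. The term was not refitted without SB + TAA replicate 4 or SB/AKT/NRas + saline replicate 1.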

How the results depend on the processing

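Against 1148 called genes (815 higher, 333 lower), library size alone in place of TMM gave 2082 (1898 and 184), and no fold threshold gave 1793 (688 lower). Leaving out 1 liver gave 810 to 1327 called, 598 to 908 higher and 211 to 419 lower, the 211 without SB/AKT/NRas + TAA replicate 5. The replicate numbers share no source and did not pair the livers, and the fit with a replicate block gave 788 called genes, of which 204 were lower. In that fit 1 of 16 bile duct markers and 4 of 33 matrix genes rose, and 3 of 33 amino acid genes fell. The causes were not tested. All other settings stayed within 1.5 times of the 3 counts, among them limma-voom (1132), DESeq2 (1203), no filter (1406), the 9 livers alone (1364) and the omission of SB + TAA replicate 4 (1203), a setting chosen after seeing the data. Of 144 named genes past the threshold, 105 kept their call in every alternative, 39 lost it in at least 1 and 0 reversed. The log2 fold change of Mup20, 0.04 and not past the threshold, was −0.0723 with limma-voom and −0.1994 to 0.1726 when 1 liver was left out, below 0 without SB + saline replicate 1 (−0.0596) or 2 (−0.0484) or SB/AKT/NRas + TAA replicate 3 or 4 (−0.1644). At 2152510 to 3399247 counts per liver, genes under about 1 CPM rest on a few molecules.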
